A study of Homo sapiens with 6 samples.

Results

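The stand-alone pseudouridine synthases are the enzymes that turn uridine in RNA into its isomer pseudouridine and find their sites without a guide RNA. Their genes were taken by symbol from the deposited count table: PUS1, PUS3, PUS7, PUS7L, TRUB1, TRUB2, RPUSD1, RPUSD2, RPUSD3 and RPUSD4, 10 of 19672 genes. All 10 had a row and all 10 passed the filter on low counts, which kept 13299 genes. RNA came from SW620, an established line of human colorectal cancer cells, in which the guided synthase gene DKC1 was stably silenced with lentiviral short hairpin RNAs. The 6 libraries form 3 groups of 2: untreated SW620 cells with a non-targeting scrambled hairpin (scramble), and the DKC1 knockdown lines C3 and C6. All groups carried a lentiviral vector and were kept under puromycin. The submitters describe 2 DKC1 hairpins. The hairpin of each line, and whether a line is 1 clone, were not given in the sources used here.

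Pseudouridine is made in human cells along a pair of routes. Dyskerin, the product of DKC1, works inside H/ACA particles, where a small guide RNA pairs with the target and so sets the site in ribosomal or spliceosomal RNA. The stand-alone enzymes read the sequence or fold of the target themselves, act mainly on transfer RNA, mitochondrial ribosomal RNA and messenger RNA, and fall into families named after bacterial relatives: TruA (PUS1, PUS3), TruB (TRUB1, TRUB2), TruD (PUS7, PUS7L) and RluA (RPUSD1 to RPUSD4). The comparisons below ask whether transcripts of the guide-free enzymes changed when the guided enzyme was silenced.

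The total count per library was between 26077966 and 31021000. DKC1 was lower in each knockdown library, at 320 and 315 CPM (counts scaled to a common library size, here by TMM) in scramble, 144 and 149 CPM in C3, and 70.3 and 67.1 CPM in C6. C3 replicate 1 carries a genotype tag that reads control, against its title, and was kept in C3. Of 9 epithelial and colorectal markers 8 were at 1 CPM or more in every library, and CDX1 was at 0. Some differed between groups. CDH1 was at 220 and 230 CPM in scramble, 60.3 and 55.9 CPM in C3, and 175 and 190 CPM in C6. In the same order VIL1 was at 284 and 300, 376 and 364, and 136 and 140 CPM. KRT19 was at 1203 and 1097, 953 and 961, and 1963 and 1934 CPM. KRT20 and CDX2 were low, between 1.13 and 4.90 CPM. Of 8 markers of leukocytes, fibroblasts and endothelium, PTPRC, CD3E, COL1A2 and DCN were at 0 in all libraries. The sum of those 8 ran from 23.5 to 26.5 CPM in scramble, 16.6 to 17.5 CPM in C3 and 40.1 to 47.0 CPM in C6. CD68 made up most of it, at 16.8 and 15.2 CPM in scramble, 10.5 and 10.8 CPM in C3, and 33.0 and 40.0 CPM in C6, while COL1A1 and PECAM1 were lower in C6 than in scramble. The part of these markers in the results was not tested. In bulk RNA, fewer cells that express a gene and less RNA per cell cannot be told apart. Replicates are named as biological in the titles, with no word on separate cultures, so p-values measure the spread between these libraries, which may be technical.

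Levels were compared between genes as RPKM (CPM per kilobase of transcript). RPKM used the median length of the GENCODE 29 coding transcripts linked to the gene's RefSeq entries. In scramble, RPUSD4 stood highest among the 10 genes at 39.2 ± 2.37 RPKM (SD, n = 2), and RPUSD1 followed at 22.4 ± 3.27 RPKM. Next came PUS3, RPUSD3, PUS1 and PUS7, between 18.8 and 19.2 RPKM. Their order is not resolved, since neighbours in it overlapped between replicates. TRUB1 at 15.5 ± 0.851 RPKM and PUS7L at 15.4 ± 0.978 RPKM overlapped each other. TRUB2 at 9.20 ± 0.445 RPKM and RPUSD2 at 8.59 ± 1.02 RPKM also overlapped and were the lowest of the 10. For comparison, DKC1 stood at 112 ± 1.22 RPKM in scramble, above every stand-alone gene, and the remaining guide-free synthase genes PUSL1 and PUS10 lay below all 10 at 6.91 ± 1.24 and 2.16 ± 0.202 RPKM. The order depends on the length used: per kilobase of coding sequence over all libraries, RPUSD4 and RPUSD2 kept rank 1 and rank 10, while TRUB2, whose transcript is long, went from rank 9 to rank 2.

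**Figure D1:**
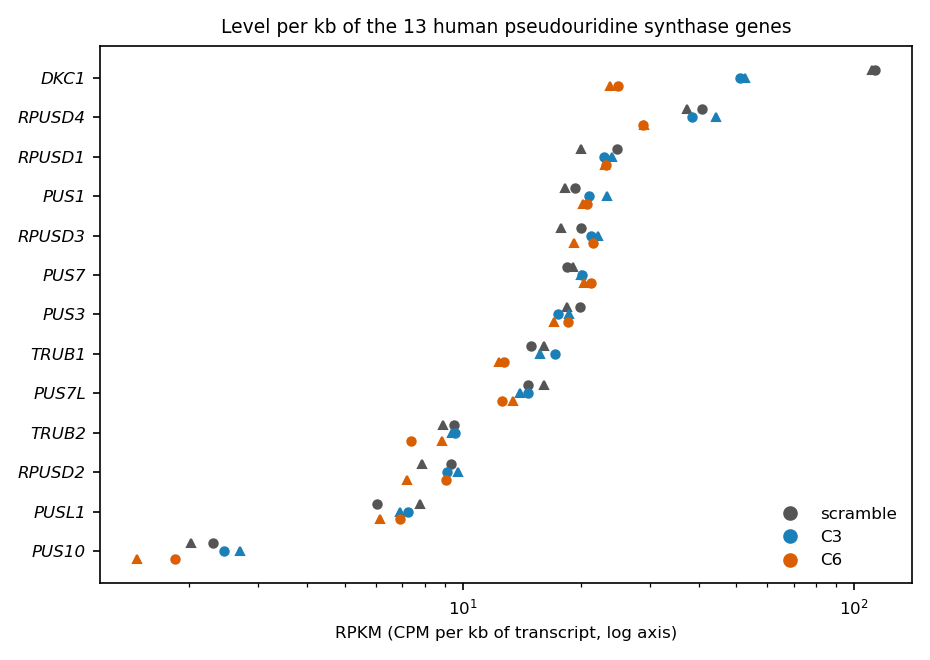
Level of the 13 human pseudouridine synthase genes in RPKM (log axis), with a point for each library (circles replicate 1, triangles replicate 2) coloured by group. DKC1 moves from 112 RPKM on average in scramble to the range of the stand-alone genes in C6, RPUSD4 is the highest stand-alone gene, and the points of most others stay close together.

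On average over both knockdown lines, no member (0 of 10) differed from scramble at an adjusted p of 0.05 with edgeR's quasi-likelihood test, while 32.9% of all genes tested did (16.6% higher and 16.3% lower). By DESeq2 the count was also 0. At an unadjusted p below 0.05 there were 3 of 10 (PUS1, PUS7L and RPUSD4), with edgeR adjusted p of 0.0512, 0.0602 and 0.0538. Of all 13299 genes tested, 5670 had an unadjusted p below 0.05 by edgeR. The log2 fold changes of the 10 genes ran from −0.18 (RPUSD4) to 0.18 (PUS1), with a median of −0.02, against −0.0045 over all genes tested. Their median absolute log2 fold change was 0.12, against 0.19 over all genes tested, which were not matched to them for level. DKC1 changed by −1.66 ± 0.05 (SE) in the same comparison. The 95% intervals of the fit put each of the 10 genes between 80.2% and 127% of its scramble level on the mean of both lines. A smaller change than these intervals allow cannot be told from no change here. The count moved to 1 with median-of-ratios (RLE) scaling, without C3 replicate 1 or without C3 replicate 2, and to 2 with upper-quartile scaling or another filter.

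In C3 alone 1 of 10 members passed, PUS1, which rose, against 24.3% of all genes tested (12.4% higher and 11.9% lower). In C6 alone 3 of 10 passed, RPUSD4, TRUB1 and PUS7L, which all fell, against 46.7% of all genes tested (23.8% higher and 22.8% lower). Between C6 and C3, RPUSD4, TRUB1 and TRUB2 were lower in C6 (3 of 10, against 49.2% of all genes, 25.1% higher and 24.1% lower). The comparisons of C3 and of C6 with scramble share their control libraries. Libraries of the groups did not overlap for 4 of 10 genes in C3 (62.9% of all genes), 6 of 10 in C6 (72.9%) and 7 of 10 between C6 and C3 (74.1%). All 4 knockdown libraries lay wholly above or wholly below scramble for 3 of 10 genes (PUS1, PUS7 and PUS7L), close to the 30.1% of all genes. The range of log2 CPM over the 6 libraries had a median of 0.35 over the 10 genes, from 0.21 (PUS7) to 0.62 (RPUSD4), against 0.57 over all genes tested. Here too the genes tested were not matched for level.

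**Figure D2:**
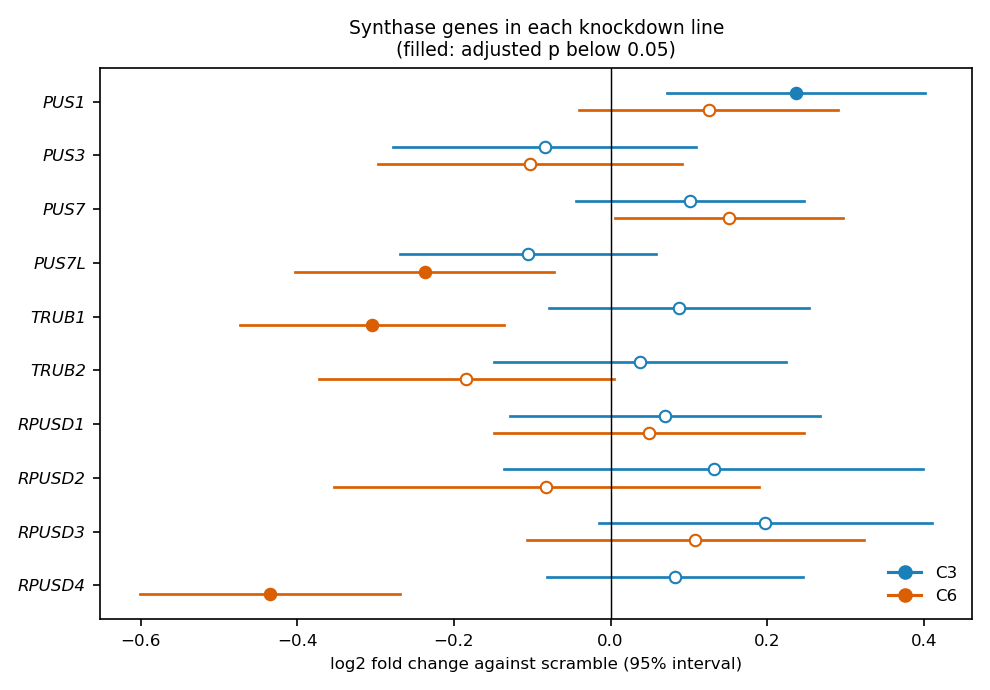
Log2 fold change of each gene in C3 (blue) and C6 (orange) against scramble; lines are 95% intervals of the edgeR fit and filled points passed an adjusted p of 0.05. RPUSD4, TRUB1 and PUS7L lie below 0 in C6 and PUS1 above 0 in C3, and the other intervals reach or come close to 0.

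RPUSD4, TRUB2 and RPUSD3 act in mitochondria, where they belong to a module of proteins needed for the large mitochondrial ribosomal RNA and so for mitochondrial translation. RPUSD4 (chromosome 11, 126202096 to 126211650, GRCh38), which also modifies mitochondrial transfer RNA, was at 93.2 and 85.6 CPM in scramble, 88.1 and 101 CPM in C3, and 65.9 and 66.4 CPM in C6. Both C6 libraries lay below all 4 others, and C3 overlapped scramble. In C6 it fell by 0.43 on the log2 scale (SE 0.08, adjusted p = 0.000321 by edgeR), to 74.0% of scramble with a 95% interval of 65.9% to 83.0%. In C3 its log2 fold change was 0.08 ± 0.08 (adjusted p = 0.483). The difference of C6 from C3, −0.52 ± 0.08, passed the test (adjusted p = 5.47e-05 by edgeR). Both RPUSD4 calls in C6 held without any single library, with edgeR adjusted p up to 0.0108 against scramble and up to 0.00188 against C3.

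TRUB2 (chromosome 9, 128305159 to 128322447) was at 54.4 and 50.8 CPM in scramble, 54.5 and 53.5 CPM in C3, and 42.0 and 50.5 CPM in C6. The C6 libraries were the lowest, but they lay further apart than those of the other groups, and C6 replicate 2 came close to scramble replicate 2. Against scramble the log2 fold change in C6 was −0.18 ± 0.09 (adjusted p = 0.101 by edgeR), and in C3 it was 0.04 ± 0.09. C6 was lower than C3 by 0.22 on the log2 scale (adjusted p = 0.0483). That call was lost with DESeq2 (adjusted p = 0.121), with the replicate number as a block in edgeR (0.0580) and when any library but C6 replicate 2 was left out, with adjusted p from 0.0644 to 0.422 by edgeR. Without C6 replicate 1 the difference shrank to −0.09, and without C6 replicate 2 it grew to −0.36 (adjusted p = 0.00811).

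RPUSD3 (chromosome 3, 9837849 to 9844008) was at 24.1 and 21.4 CPM in scramble, 25.6 and 26.6 CPM in C3, and 25.9 and 23.2 CPM in C6. C3 lay above scramble and C6 overlapped both, and no comparison passed the test. Its log2 fold changes were 0.20 ± 0.10 (C3) and 0.11 ± 0.10 (C6), with adjusted p of 0.172 and 0.404 by edgeR. Its value in C6 had the opposite sign to that of RPUSD4, and the difference between the genes was not tested. Summed over the 3 genes, the level was 172 and 158 CPM in scramble, 168 and 181 CPM in C3, and 134 and 140 CPM in C6, a description to which RPUSD4 contributes most.

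TRUB1 (chromosome 10, 114938195 to 114977676) modifies the T loop of cytosolic transfer RNA and a set of messenger RNA sites. It was at 50.8 and 54.9 CPM in scramble, 58.6 and 53.7 CPM in C3, and 43.4 and 42.2 CPM in C6. As with RPUSD4, both C6 libraries lay below the other 4. TRUB1 fell by 0.30 on the log2 scale in C6 (SE 0.08, adjusted p = 0.00532 by edgeR), to 81.0% of scramble (95% interval 72.0% to 91.0%). In C3 its log2 fold change was 0.09 ± 0.08 (adjusted p = 0.457), and C6 differed from C3 by −0.39 ± 0.08 (adjusted p = 0.000718 by edgeR). Without scramble replicate 2 the call against scramble was lost (−0.25, adjusted p = 0.0627), while the call against C3 held without any single library.

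**Figure D3:**
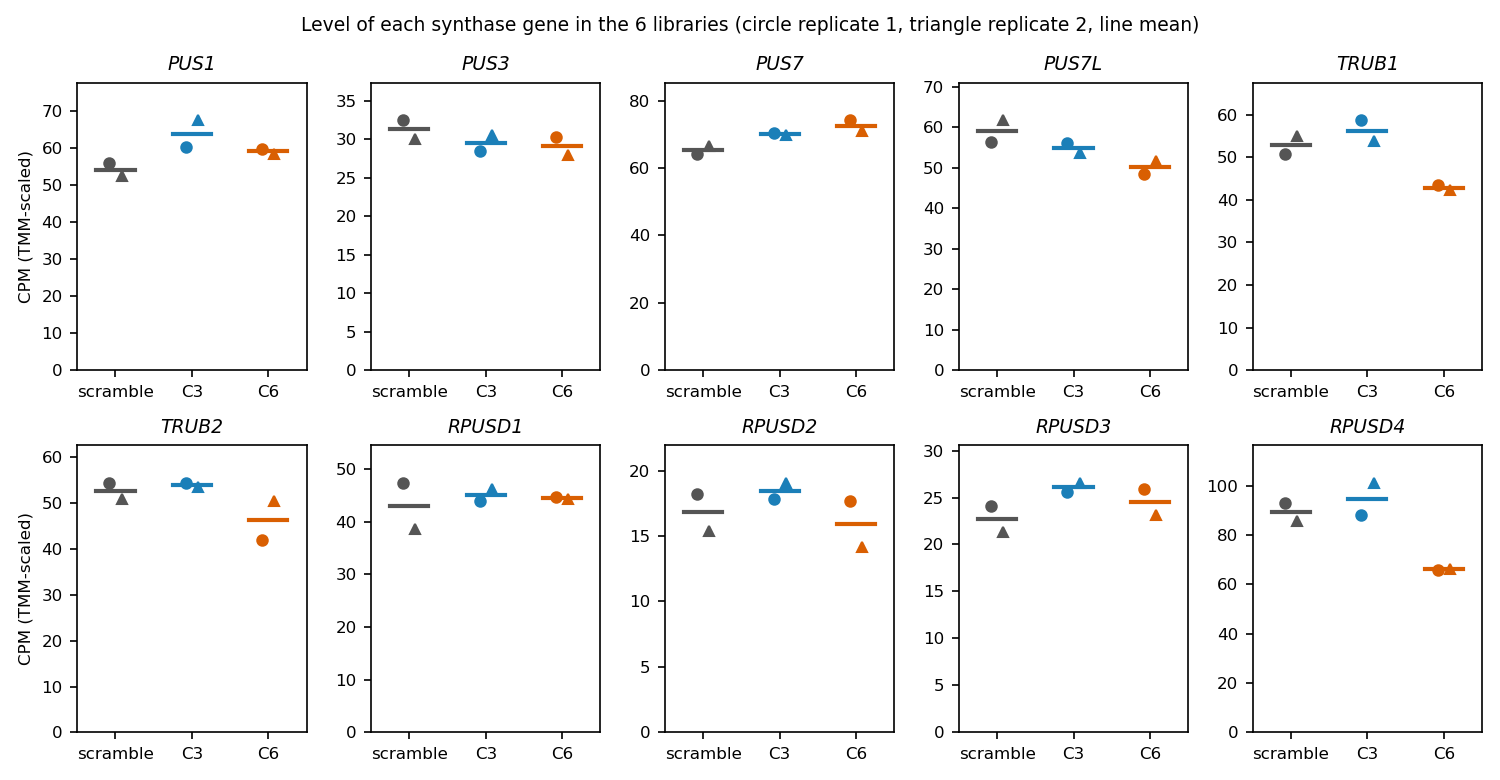
Level in CPM (axis from 0) of the 10 genes in scramble, C3 and C6; circles are replicate 1, triangles replicate 2 and lines the mean of 2 libraries. C6 lies below the other groups for RPUSD4 (65.9 and 66.4 CPM) and TRUB1 (43.4 and 42.2 CPM), while PUS3, RPUSD1 and RPUSD2 overlap between scramble and both lines.

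The promoter windows of the 3 genes that were lower in C6 than in C3 are shown because RPUSD4 and TRUB1 moved together and TRUB2 moved the same way by less. Each is 300 bases, 250 before and 50 from the RefSeq start site on (GRCh38.p14), read 5′ to 3′ on the gene's own strand. They lie at chr11:126211601-126211900 (minus strand, RPUSD4), chr10:114937945-114938244 (plus strand, TRUB1) and chr9:128322398-128322697 (minus strand, TRUB2). Capitals mark matches, on either strand, to the E-box motif CACGTG, the GC box motif GGGCGG, the CCAAT box, the core motif TGCGCA of NRF1, the ETS factor motif CCGGAAG, the TATA box motif TATAAA and the YY1 factor motif AAGATGG. No matches overlap in these windows.
RPUSD4: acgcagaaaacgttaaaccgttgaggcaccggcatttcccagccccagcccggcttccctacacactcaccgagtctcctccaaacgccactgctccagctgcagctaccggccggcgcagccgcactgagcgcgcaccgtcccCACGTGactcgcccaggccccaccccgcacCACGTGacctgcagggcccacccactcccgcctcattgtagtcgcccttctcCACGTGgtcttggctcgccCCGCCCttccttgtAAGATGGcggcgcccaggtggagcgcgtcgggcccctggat
TRUB1: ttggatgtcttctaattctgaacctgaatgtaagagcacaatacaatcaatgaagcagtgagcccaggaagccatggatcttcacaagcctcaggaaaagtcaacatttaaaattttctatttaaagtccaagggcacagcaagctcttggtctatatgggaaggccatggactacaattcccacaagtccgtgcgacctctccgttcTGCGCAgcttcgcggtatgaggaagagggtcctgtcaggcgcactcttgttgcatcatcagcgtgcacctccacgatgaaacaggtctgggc
TRUB2: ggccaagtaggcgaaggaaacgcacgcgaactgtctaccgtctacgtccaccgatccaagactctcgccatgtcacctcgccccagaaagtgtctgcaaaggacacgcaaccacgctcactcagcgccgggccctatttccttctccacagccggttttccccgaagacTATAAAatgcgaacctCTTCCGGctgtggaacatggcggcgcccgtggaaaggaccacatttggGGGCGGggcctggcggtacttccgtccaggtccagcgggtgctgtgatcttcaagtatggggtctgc
RPUSD4 held 3 E-boxes, beginning at −106, −76 and −24 from the start site, besides 1 GC box and 1 YY1 site. At least 1 E-box was found in 7.26% of the 35116 promoter windows of the table, and 3 or more in 0.0940%. These windows were not matched for GC content, which was 67.7% in the RPUSD4 window. TRUB1 held 1 NRF1 core (8.24% of all windows) and no other match, and TRUB2 held 1 GC box (45.0%), 1 ETS site (10.3%) and 1 TATAAA (11.5%). No motif was common to all 3. Windows were matched for 8 of the 10 genes, with PUS1 and PUS7L unmatched, and their GC content ran from 48.3% (TRUB1) to 81.3% (RPUSD1), with a median of 57.8% against 58.7% over all windows. Apart from RPUSD4, PUS7 was the only one of the 8 with an E-box (1). These are matches of letters and not measured binding.

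A start site of FAM118B (126211782) lies 132 bases from that of RPUSD4 (126211650) on the opposite strand, so the window printed for RPUSD4 holds both. The gene record of FAM118B begins closer to RPUSD4, at 126211724, also inside that window. FAM118B was at 23.7 and 24.1 CPM in scramble, 32.5 and 28.4 CPM in C3, and 21.9 and 22.1 CPM in C6. It too was lower in C6 than in C3 (log2 difference −0.47 ± 0.10, adjusted p = 0.000803 by edgeR). Against scramble it rose in C3 (0.35 ± 0.10, adjusted p = 0.0141) and did not pass the test in C6 (−0.12 ± 0.10, adjusted p = 0.322), whereas RPUSD4 was called in C6 and not in C3. The start of CHTF18, a replication factor, lies 239 bases from that of RPUSD1 on the opposite strand, and neither gene was called in any comparison. No other member with a matched window had a tested gene with a window on the opposite strand starting within 1000 bases. PUS1 and PUS7L had no window and were not searched. Tested genes without a window were not searched either, so a close start on the opposite strand may have been missed for any member.

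PUS1 (chromosome 12, 131929276 to 131945896) modifies many transfer RNA positions in the nucleus and in mitochondria, and its loss in patients causes a mitochondrial myopathy with sideroblastic anemia. It was at 55.8 and 52.5 CPM in scramble, 60.3 and 67.4 CPM in C3, and 59.8 and 58.3 CPM in C6, so all 4 knockdown libraries lay above scramble. In C3 it rose by 0.24 ± 0.08 on the log2 scale (adjusted p = 0.0353 by edgeR), and in C6 the value was 0.13 ± 0.08 (adjusted p = 0.203). The call in C3 did not hold with DESeq2 (adjusted p = 0.0979) or upper-quartile scaling (0.0783). Leaving out scramble replicate 1 (0.0656), scramble replicate 2 (0.208) or C3 replicate 2 (0.340) ended it as well. PUS3 (chromosome 11, 125893485 to 125903206), its relative that modifies the anticodon arm, was at 32.4 and 30.1 CPM in scramble, 28.5 and 30.5 CPM in C3, and 30.3 and 27.9 CPM in C6. All groups of PUS3 overlapped, and its mean log2 fold change of −0.09 had a 95% interval from −0.26 to 0.07. PUS3 overlaps HYLS1, a centriole gene on the opposite strand, and the assignment of shared reads was not given in the sources used here. HYLS1 was at 7.94 ± 0.513 CPM in scramble (SD, n = 2), 5.95 ± 0.337 in C3 and 3.74 ± 0.302 in C6 and fell in C6 by 1.09 on the log2 scale (adjusted p = 0.000108 by edgeR).

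PUS7 (chromosome 7, 105456501 to 105522271) modifies transfer RNA, small RNA fragments derived from it and messenger RNA. It was at 64.2 and 66.5 CPM in scramble, 70.3 and 69.9 CPM in C3, and 74.1 and 71.0 CPM in C6. Every knockdown library was above scramble, yet the log2 fold changes of 0.10 ± 0.07 in C3 and 0.15 ± 0.07 in C6 did not pass the test (adjusted p = 0.316 and 0.083 by edgeR). PUS7L (chromosome 12, 43718992 to 43758790), its paralog, was at 56.4 and 61.7 CPM in scramble, 56.2 and 53.6 CPM in C3, and 48.5 and 51.7 CPM in C6. All 4 knockdown libraries of PUS7L lay below scramble, though C3 replicate 1 came close to scramble replicate 1. PUS7L fell in C6 by 0.24 on the log2 scale (SE 0.08, adjusted p = 0.0202 by edgeR), to 84.8% of scramble, and stood at −0.11 ± 0.08 in C3 (adjusted p = 0.359). The call was lost without scramble replicate 2 (adjusted p = 0.169), without C6 replicate 1 (0.128) and with DESeq2 (0.0539). In the mean of both lines it passed with upper-quartile scaling (−0.22, adjusted p = 0.0181).

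RPUSD1 and RPUSD2 are less well characterized enzymes of the RluA group. RPUSD1 (chromosome 16, 784974 to 788381) was at 47.4 and 38.5 CPM in scramble, 44.0 and 46.2 CPM in C3, and 44.6 and 44.3 CPM in C6. The scramble libraries were the highest and the lowest of the 6, so its sign against scramble depends on them: the mean value of 0.06 ± 0.08 turned to −0.08 without scramble replicate 2. RPUSD2 (chromosome 15, 40569299 to 40574949) was at 18.2 and 15.4 CPM in scramble, 17.8 and 19.1 CPM in C3, and 17.7 and 14.1 CPM in C6. Its groups overlapped except for C6 and C3, and its 95% interval for the mean, 86.5% to 120% of scramble, is the widest of the 10.

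Blocks of neighbouring genes shifted together in these lines, and the position of the 10 genes was read beside their values. In C6 the median log2 fold change of up to 51 genes centred on PUS7, itself included, was 0.50, and PUS7 itself stood at 0.15. Around TRUB2 it was 0.23, with TRUB2 at −0.18. Around the other 8 genes it lay between −0.06 and 0.11 in C6, and around all 10 between −0.09 and 0.06 in C3. With the running median removed, PUS7 turned to −0.35 (adjusted p = 0.000905 by edgeR) and TRUB2 stood at −0.42 (adjusted p = 0.00158) in C6. Both lay below the median of their neighbours. Against C3 PUS7 then turned to −0.48 and PUS1 was lower too (−0.26, adjusted p = 0.0113). RPUSD4 and TRUB1 kept their calls there, and PUS7L lost its own in C6 (−0.18, adjusted p = 0.0711). The median was removed as a fixed value, so these p-values leave out its uncertainty and the spread among the neighbours.

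**Figure D4:**
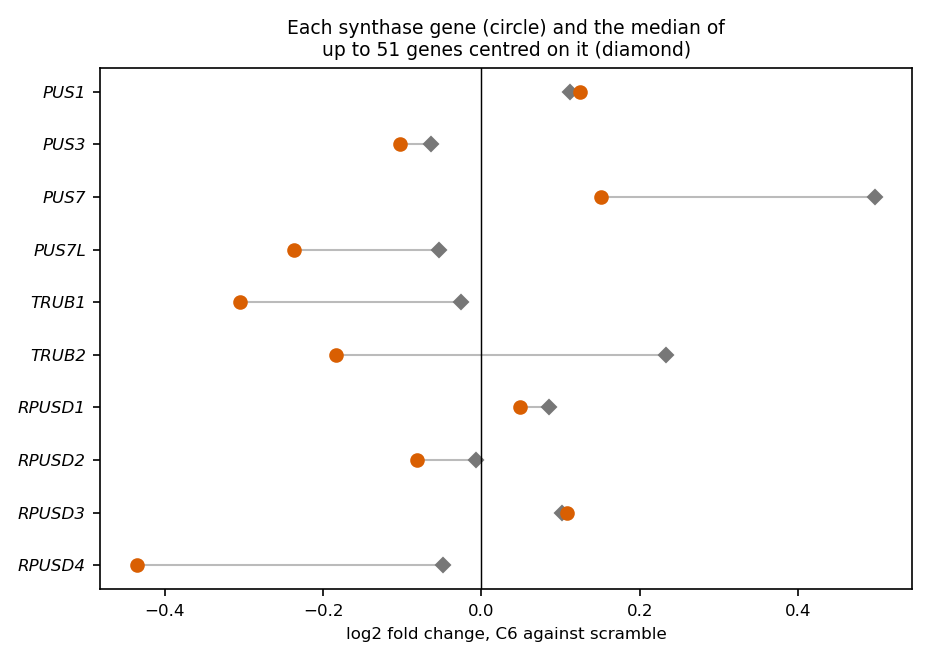
Log2 fold change in C6 against scramble of each gene (orange circle) and the median of up to 51 tested genes centred on it along its chromosome, itself included (grey diamond), joined by a line. PUS7 and TRUB2 lie well to the left of their neighbours' medians of 0.50 and 0.23, and RPUSD4, TRUB1 and PUS7L lie to the left of medians near 0.

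RPUSD4 had the widest range of the 10 genes, and the genes with the most similar profile were sought over the 6 libraries, by the root mean square distance of log2 CPM after centring each gene on its mean. The nearest were ADCK1 (distance 0.02), a mitochondrial protein, ALDH16A1 (0.03) and IFTAP (0.03). ALDH16A1, for example, was at 34.9 and 31.3 CPM in scramble, 33.1 and 37.0 CPM in C3, and 25.3 and 25.4 CPM in C6. With 6 libraries and 13299 genes such near matches are a description only.

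The remaining synthase genes and the rest of the pathway were read beside these 10. PUS10, which modifies transfer RNA and is low here, was at 4.72 and 4.13 CPM in scramble, 5.04 and 5.51 CPM in C3, and 3.76 and 3.02 CPM in C6. It passed the test only between the lines, where C6 was lower (log2 difference −0.64 ± 0.20, adjusted p = 0.0168 by edgeR). PUSL1 did not pass in any comparison (mean log2 fold change −0.02 ± 0.13). PUDP, which encodes a phosphatase of pseudouridine monophosphate, had 0 counts in every library, where 3 counts would equal 0.0967 to 0.115 CPM. Of 6 H/ACA particle genes 3 were called in the mean of both lines (against 32.9% of all genes tested): NHP2 (0.23) and GAR1 (0.30), which encode core proteins, rose, and the assembly factor NAF1 changed by −0.61. NHP2 and GAR1 were called in C3 (adjusted p = 0.0164 and 0.0372 by edgeR) and not in C6 (0.0511 and 0.149). By line, 3 of the 6 were called in C3 (against 24.3% of all genes tested) and 1, NAF1, in C6 (against 46.7%). The core protein gene NOP10 stood at 0.14 (adjusted p = 0.0714 by edgeR). The median of genes around NAF1 was −0.46 in both lines.

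Of 18 genes for mitochondrial ribosomal RNA factors, partners and modifiers, 4 were called in the mean, 3 higher and 1 lower (22.2%, against 32.9% of all genes, with a median log2 fold change of 0.04). RCC1L, a partner of RPUSD4 in the mitochondrial module, rose by 0.37 ± 0.07, the RNA granule protein FASTKD5 by 0.32 and the ribosomal RNA methyltransferase MRM2 by 0.25. The RNA helicase DHX30 changed by −0.19. In C6, RCC1L rose by 0.54, and the median of the up to 50 other genes around it was also 0.54. For MRM2 the values were 0.44 and 0.46, and for FASTKD5 0.49 and 0.34. In C3, RCC1L, FASTKD5 and MRM2 stood at 0.20, 0.15 and 0.05, and none passed the test (adjusted p = 0.0977, 0.193 and 0.698 by edgeR). DHX30 had the same order of groups as RPUSD4, at 132 ± 3.69 CPM in scramble, 134 ± 1.73 in C3 and 100.2 ± 4.42 in C6 (SD, n = 2). Among 68 other transfer RNA modification genes 22 were called in the mean, or 32.4%, close to the 32.9% of all genes, with 14 higher and 8 lower and a median of −0.0032. HSD17B10, a subunit of mitochondrial RNase P and of its methyltransferase, rose by 0.86, the methylthiotransferase CDKAL1 by 0.67, and LAGE3 and TP53RK of the KEOPS complex by 0.91 and 0.47. TP53RK lies where neighbouring genes had medians of 0.40 in C3 and 0.52 in C6. Around LAGE3 these medians were −0.0013 in C3 and 0.33 in C6, with LAGE3 itself at 0.47 and 1.35. Around HSD17B10 and CDKAL1 they lay between −0.18 and −0.03.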

How the data were processed

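Counts per gene were deposited by the authors as whole numbers, under headers that name them read counts. They were taken as not scaled between the 6 libraries. Whether they are tallies of reads or estimates was not given in the sources used here. Per the labels' protocols, libraries were stranded poly(A) libraries sequenced as paired ends. The submitters' processing notes name build hg38, DESeq2, StringTie 2.1.3b, HISAT2 2.1.0 and Trimmomatic 0.38; the rule for assigning reads to genes was not given in the sources used here.

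Groups came from the titles. Genes were tested with edgeR 4.0.16 in R 4.3.3 (quasi-likelihood, robust, TMM, filterByExpr) on all 6 libraries as 3 groups, with 3 residual degrees of freedom and Benjamini-Hochberg adjustment over 13299 genes at 0.05. Contrasts were C3, C6 and the mean of both against scramble, and C6 against C3. Standard errors are the log2 fold change over the root of its F statistic. Log2 CPM used a prior count of 2. Of the genes tested 13238 had a RefSeq position (GRCh38.p14). The fit was tested on simulated data.

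The members and gene lists were chosen with earlier results of these data known. By rule all 10 members, DKC1, PUSL1 and PUS10 were named, with up to 4 genes per list by smallest p in the mean comparison, genes starting within 1000 bases on the other strand and the 3 genes most like the member of widest range. HYLS1 was named after its values were seen, because it overlaps PUS3. Alternatives were RLE and upper-quartile scaling, 2 filters, DESeq2 1.42.0, a replicate block, removal of the neighbours' shift, the knockdown libraries as 1 group, coding length and leaving out each library.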

Additional observations from a re-analysis of the deposited data

Results flagged for a closer look

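In 3 genes the level differed between the lines by the test of C6 against C3 (edgeR's quasi-likelihood test, Benjamini-Hochberg over all genes). Of all genes, 49.2% passed this test. The lines differ in DKC1 level and may differ in hairpin or clone, which cannot be told apart here. RPUSD4 differed by −0.52 on the log2 scale (adjusted p = 5.47e-05), with both C6 libraries below both C3 libraries. TRUB1 differed by −0.39 (adjusted p = 0.000718), with the same separation. TRUB2 differed by −0.22 (adjusted p = 0.0483), also without overlap, and this value lies close to the threshold: the call was lost with DESeq2 (adjusted p = 0.121), with the replicate block (0.0580) and without any single library other than C6 replicate 2 (0.0644 to 0.422).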

How the results depend on the processing

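Among 530 recomputed log2 fold changes of the 10 genes, 479 kept their direction and side of the threshold, 18 lost a call, 14 gained one with the same sign and 19 changed sign, of which 2 (PUS7 in C6 and between the lines, with the neighbours' shift removed) also gained a call. In the mean of both lines the count of called genes, 0, became 1 with RLE scaling (RPUSD4) or with the neighbours' shift removed (TRUB2), 2 with upper-quartile scaling (PUS7L and RPUSD4), 2 without a filter (PUS1 and RPUSD4) and 2 with a filter of 1 CPM in 2 libraries (PUS7L and RPUSD4); leaving out a library gave 0 to 1. With the knockdown libraries as 1 group it stayed 0, in a fit that called 80 of 13299 genes (0.602%). In C3 the count of 1 became 0 with upper-quartile scaling and with DESeq2, and ranged from 0 to 1 when a library was left out. In C6 the count of 3 ranged from 1 (without scramble replicate 2, RPUSD4 alone) to 4, and between C6 and C3 from 2 to 3. With the neighbours' shift removed the last count was 5. The cause of these changes was not tested.

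With the replicate number as a block, the count was 0 in the mean, 0 in C3, 3 in C6 and 2 between the lines. The deviations of same-numbered libraries correlated at −0.05, 0.06 and 0.03 across 13299 genes. A shared effect on few genes would not appear in these values. Whether same-numbered libraries shared a culture or preparation therefore cannot be told from them.

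Signs changed for PUS7 with the neighbours' shift removed (−0.11 in the mean, −0.35 in C6 and −0.48 between the lines). With upper-quartile scaling they changed for RPUSD2 in the mean (−0.024) and RPUSD1 in C6 (−0.013), and with the shift removed for TRUB2 in C3 (−0.013) and RPUSD1 in C6 (−0.037). When a library was left out, uncalled values crossed 0. RPUSD1 ran from −0.081 to 0.22 in the mean, −0.071 to 0.23 in C3, −0.091 to 0.21 in C6 and −0.057 to 0.016 between the lines. RPUSD2 ran from −0.090 to 0.15 in the mean and −0.25 to 0.076 in C6. TRUB2 ran from −0.0099 to 0.089 and RPUSD4 from −0.020 to 0.18 in C3, and PUS3 from −0.079 to 0.042 between the lines. With 2 libraries a group, changes within the intervals given cannot be told from none.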
